A study of Mus musculus with 2 samples.

Results

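The genes described here shut off the light response of photoreceptors and restore their cyclic GMP. They comprise cone arrestin (*Arr3*), the opsin kinase (*Grk1*), the GTPase accelerator *Rgs9* with its anchor *Rgs9bp*, the retinal guanylate cyclases *Gucy2e* and *Gucy2f*, the cyclase activators *Guca1a* and *Guca1b*, recoverin (*Rcvrn*) and phosducin (*Pdc*). The 10 genes were listed by name, and each had a row among the 17774 genes of the count table. They were measured by single-cell RNA sequencing in GFP-positive cells sorted into 96-well plates from retinae of mice carrying the *Pde6c* cpfl1 mutation, a model of cone dystrophy, and a *Chrnb4*.eGFP transgene whose promoter marks the cones, on a C57BL/6 background. All animals were at postnatal day (PN) 24. The GSK-J4-treated library came from eyes that had received 1 intravitreal injection of GSK-J4, an inhibitor of the demethylases that act on trimethylated lysine of histone H3, at PN14 for 10 µM in the eye, and was collected 10 days later. The other library came from uninjected retinae of the same line, and no vehicle-injected library is analysed here. Each condition was 1 library on 1 plate, and the number of animals behind each is not given in the sources used here. The comparison therefore had no replicates and no test was made. Every interval below is a 95% interval that covers counting error only, not the difference between plates or animals.

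The uninjected library held 82 cells and 1113424 counts after filtering, with a median of 8118 counts per cell (860 to 98250). The GSK-J4-treated library held 64 cells and 208578 counts and was shallower, with a median of 2335.5 counts per cell (420 to 15371). Numbers of cells with a count are therefore not at equal depth unless thinned. The treated cells stood apart from their label. Of the 9 other cone markers listed, 4 had no count in the treated library, among them the S-opsin gene *Opn1sw* and the cone transducin subunit *Gngt2*, and the list took 0.194% of the counts against 1.99% in uninjected cells. The per-cell share of these markers had a median of 0 in treated cells and of 1.38% in uninjected cells. Rod markers took 0.0257% and 0.355% and Müller glia markers 0.0305% and 0.0904%, in the same order. Retinal pigment epithelium markers took 0.00572% and 0.00861%. Bipolar (0.0138% and 0.0106%), amacrine (0.0124% and 0.00475%) and microglia markers (0.00381% and 0.000986%) took more in treated cells, each list on at most 29 treated counts. Genes for olfactory and vomeronasal receptors, a measure of counts on genes with no known place in cones, took 1.46% of treated and 0.633% of uninjected counts. These were unevenly spread over the 510 genes. The highest gene held 369 of 3069 treated counts, and the highest in the other library 1940 of 7063 uninjected counts. The cell names of the treated library also hold the word adult, whereas the labels give PN24. How far these differences set the values below was not tested.

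When light activates a cone opsin, transducin switches on the phosphodiesterase that breaks down cyclic GMP, and the cation channels close. Recovery needs several steps at once. GRK1 phosphorylates the active opsin, arrestin caps it, and RGS9, held at the membrane by its anchor and paired with the beta subunit GNB5, speeds the shut-off of transducin. As calcium falls, guanylate cyclase activating proteins switch on the membrane guanylate cyclases, which rebuild cyclic GMP, and recoverin lets go of GRK1. Phosducin binds the beta-gamma subunits of transducin. Mutations in several of these genes cause human cone or cone-rod dystrophies. In *Pde6c* cpfl1 cones the phosphodiesterase itself is defective, so the enzymes that make cyclic GMP are of particular interest in this line.

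Promoter sequences are shown for the most abundant member and the cone arrestin, for the cyclases, whose windows hold several copies of a photoreceptor motif, and for *Pdc* as an abundant member without it. They are the 250 bases before the RefSeq start of each gene on build GRCm38.p6, written 5′ to 3′ on the strand of the gene. Capitals mark TAATC or, on the other strand, GATTA, the core of the sites preferred by CRX, a transcription factor of rods and cones. The windows are *Guca1a* at chr17:47400607-47400856 on the minus strand, *Arr3* at chrX:100605247-100605496 on the plus strand, *Gucy2e* at chr11:69237023-69237272 on the minus strand, *Gucy2f* at chrX:142196937-142197186 on the minus strand, and *Pdc* at chr1:150319167-150319416 on the plus strand.
Guca1a: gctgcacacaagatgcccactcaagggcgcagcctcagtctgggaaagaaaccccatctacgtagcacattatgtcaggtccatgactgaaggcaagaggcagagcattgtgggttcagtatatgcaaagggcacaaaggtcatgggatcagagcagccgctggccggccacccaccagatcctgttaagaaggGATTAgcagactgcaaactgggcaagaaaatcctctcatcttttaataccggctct
Arr3: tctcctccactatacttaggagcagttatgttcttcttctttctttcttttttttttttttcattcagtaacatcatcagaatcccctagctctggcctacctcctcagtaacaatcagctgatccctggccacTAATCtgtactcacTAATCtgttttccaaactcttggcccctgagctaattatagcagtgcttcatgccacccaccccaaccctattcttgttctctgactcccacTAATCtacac
Gucy2e: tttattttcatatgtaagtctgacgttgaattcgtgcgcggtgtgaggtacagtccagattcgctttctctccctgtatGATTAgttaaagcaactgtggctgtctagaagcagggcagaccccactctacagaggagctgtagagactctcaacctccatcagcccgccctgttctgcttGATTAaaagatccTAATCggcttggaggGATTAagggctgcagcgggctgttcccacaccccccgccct
Gucy2f: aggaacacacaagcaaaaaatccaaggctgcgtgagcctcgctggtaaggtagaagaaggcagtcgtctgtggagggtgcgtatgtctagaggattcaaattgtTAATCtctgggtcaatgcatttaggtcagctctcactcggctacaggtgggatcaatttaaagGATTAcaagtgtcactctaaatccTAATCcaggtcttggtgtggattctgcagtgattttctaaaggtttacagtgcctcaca
Pdc: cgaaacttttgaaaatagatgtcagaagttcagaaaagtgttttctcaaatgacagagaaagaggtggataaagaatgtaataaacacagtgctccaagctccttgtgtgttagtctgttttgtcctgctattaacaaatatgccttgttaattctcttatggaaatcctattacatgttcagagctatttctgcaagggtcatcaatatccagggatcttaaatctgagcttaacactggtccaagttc

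RefSeq promoters were held for 7 of the 10 genes (not for *Rgs9bp*, *Guca1b* or *Rcvrn*), and 5 of these contained TAATC on either strand, compared with 19.8% of 32851 promoter windows of the same length. The first base of the matches lay 171, 69, 56 and 41 bases before the start of *Gucy2e*, 146, 83 and 59 bases before that of *Gucy2f*, and 116, 102 and 10 bases before that of *Arr3*. Windows with at least 3 matches made up 0.554% of all promoters and those with at least 4 made up 0.0609%. *Guca1a* had 1 match at 56 bases and *Rgs9* 1 at 187 bases, while *Grk1* and *Pdc* had none in this window. The longer form TAATCC, which contains TAATC, stood in 3 of the 7 promoters (*Gucy2e*, *Gucy2f* and *Guca1a*) and in 6.25% of all. The number of matches did not follow the counts, since *Gucy2f* had 3 matches and 2 counts in the whole uninjected library and *Pdc* had no match and 1019 counts.

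Together the 10 genes took 8230 counts in uninjected cones, or 0.739% of the library (0.723 to 0.755%), and 94 counts in GSK-J4-treated cells, or 0.0451% (0.0364 to 0.0551%). In single uninjected cones the share ran from 0.0531% to 3.48% with a median of 0.588%, and in treated cells it had a median of 0 and a maximum of 0.439%. Every uninjected cone had a count of at least 2 of the 10 genes, with a median of 5 and a maximum of 9, and 78 of 82 had at least 3. Of the treated cells 45 of 64 had none, 19 had at least 1 (29.7%, 18.9 to 42.4%), and the highest number was 2. Thinned to 867 counts per cell, 77 of 81 uninjected and 12 of 50 treated cells had any of the genes, and 30 and 0 had at least 3. Before thinning the ranges of the number of genes per cell met only at 2 genes.

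**Figure D1:**
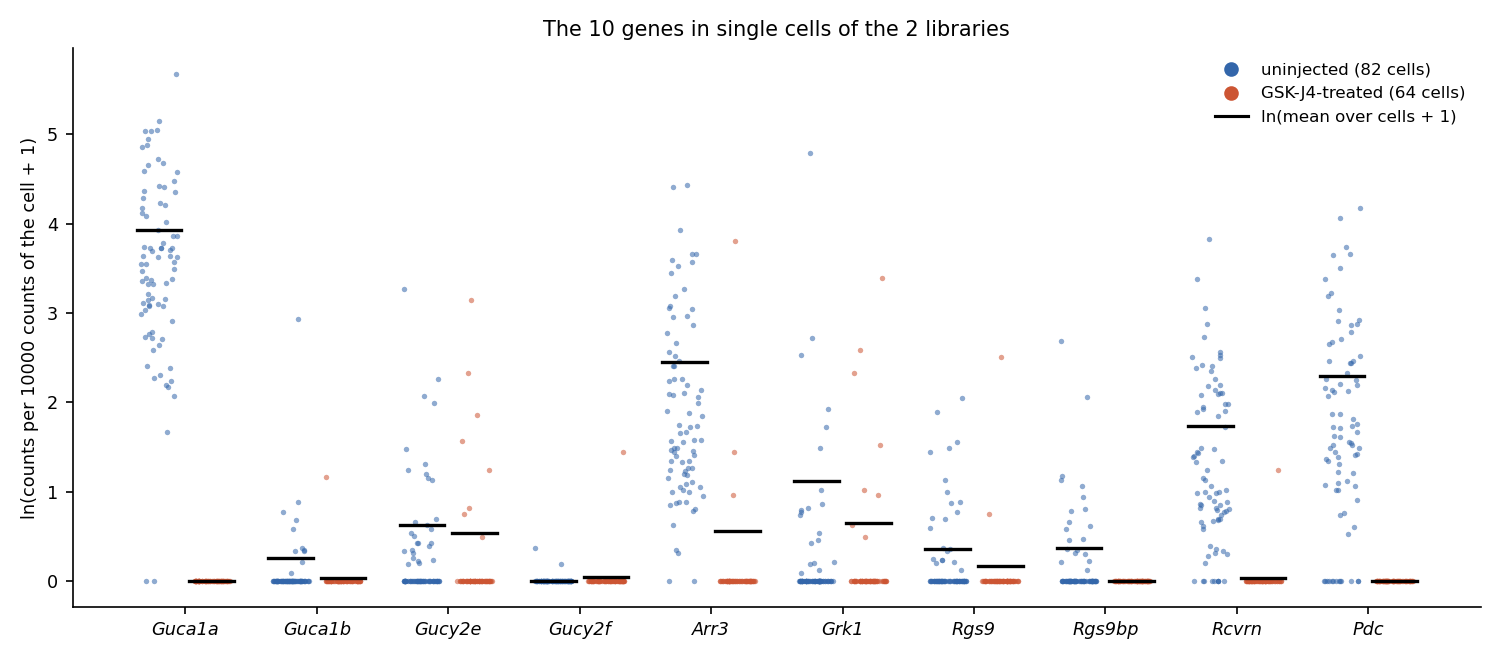
Each point is a cell, on the natural log of counts per 10000 counts of the cell plus 1, for the 82 uninjected (blue) and 64 GSK-J4-treated (orange) cells. Black bars are the natural log of the mean over cells plus 1. *Guca1a*, *Arr3*, *Rcvrn* and *Pdc* were spread over most uninjected cells and were at 0 in nearly all treated cells, while the other 6 genes were at 0 in most cells of both libraries.

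Log-folds were taken between the mean counts per 10000 of treated and of uninjected cells, each with 1 added before the natural logarithm, so that values below 0 mean lower in treated cells. Of the 10 genes, 6 had a log-fold below -0.3 (*Guca1a*, *Pdc*, *Arr3*, *Rcvrn*, *Grk1* and *Rgs9bp*), where 11.8% of the 15947 genes passed this limit, and none was above 0.3, where 12.6% of all genes were. Their median log-fold was -0.42 and that of all genes 0.033. By a second measure, exact Poisson intervals on the counts summed over each library lay apart with the treated rate lower for 6 genes (*Guca1a*, *Pdc*, *Arr3*, *Rcvrn*, *Rgs9bp* and *Rgs9*), as for 11.8% of all genes, and with the treated rate higher for 1, *Grk1*, as for 16.0% of all genes. The lists differ by *Grk1*, which each measure placed on a different side, and by *Rgs9*. *Guca1b* was lower, and *Gucy2e* and *Gucy2f* were close to 0, on the log-fold scale, but within the limit. *Guca1b* and *Gucy2f* had uninjected means of 0.294 and 0.00819 per 10000. With 1 added, neither could fall below -0.3 even without any treated count.

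**Figure D2:**
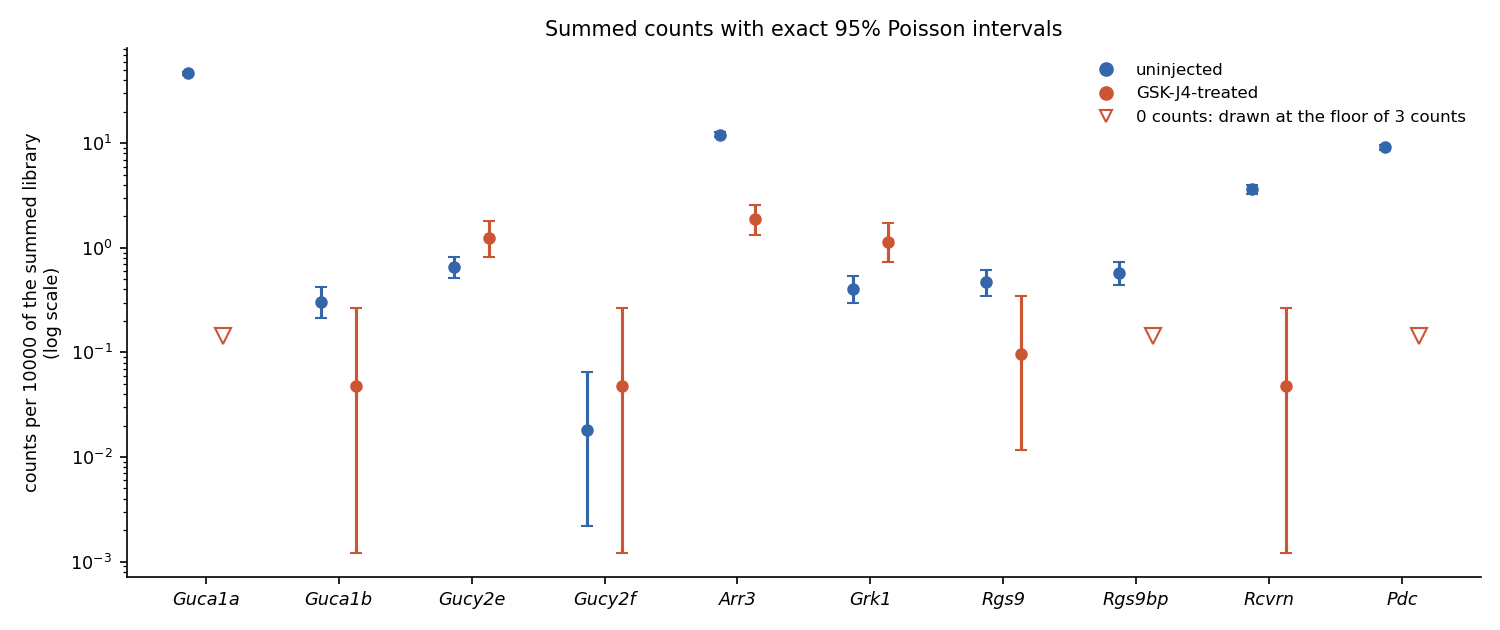
Counts of each gene per 10000 counts of the summed library, on a log axis, with exact 95% Poisson intervals, for uninjected (blue) and GSK-J4-treated (orange) cells. Open triangles mark 0 counts, drawn at the floor of 3 counts. *Guca1a* stood at 46.6 in uninjected cells and had no count in treated cells, whereas *Grk1* was at 0.404 and 1.15.

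*Guca1a*, the activator of the cone cyclase also known as GCAP1, was the most abundant of the 10 in uninjected cones. It had 5193 counts (5053 to 5336) in 80 of 82 cells, with a lowest, median and highest count per cell of 0, 23 and 363. Per kb of its longest transcript its rate was 53.4 per 10000 counts (52.0 to 54.9), against 7.12 (6.74 to 7.51) for *Arr3*, 3.51 (3.18 to 3.87) for *Rcvrn* and 2.74 (2.58 to 2.92) for *Pdc*. The other 6 genes lay between 0.00221 and 0.183 on this per-kb scale. The counts come from 3′ and 5′ tags, so division by length orders the genes only roughly. The intervals of the leading 4 did not overlap, while those of *Rgs9*, at 0.135 (0.101 to 0.177), and *Guca1b*, at 0.183 (0.127 to 0.256), did. Those of *Rgs9bp* (0.0872), *Gucy2e* (0.0787) and *Grk1* (0.0544) overlapped as well.

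No *Guca1a* count was found in the 64 treated cells. The summed rate was at least 324-fold lower than in uninjected cells, taking a floor of 3 counts over the treated library, and the log-fold was -3.93 (-3.98 to -3.88). After thinning to 867 counts, 69 of 81 uninjected cells still had a *Guca1a* count and 0 of 50 treated cells did. The groups overlapped only at 0, where 2 uninjected cells lay.

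*Guca1b*, the second activator (GCAP2), which is best known from rods, had 34 counts (23.5 to 47.5) in 11 uninjected cells, of which 19 (55.9%) were in 1 cell. That cell, of 10733 counts, also held the highest single-cell counts of the rod genes *Gnb1* (36) and *Cnga1* (23). Whether its *Guca1b* counts came from rod RNA was not tested. *Guca1a* took 99.3% (99.1 to 99.5%) of the counts of the pair, and its rate per kb was 292 times that of *Guca1b*. The genes are neighbours on chromosome 17 (GRCm38), *Guca1a* at 47394558-47400584 on the minus strand and *Guca1b* at 47385393-47392967 on the plus strand, with 1590 bases between them. All 11 cells with *Guca1b* also had a count of *Guca1a*. In treated cells *Guca1b* had 1 count, with a ratio of summed rates to the uninjected library of 0.157 (0.00386 to 0.936). That count lay in a cell with 303 counts of the M-opsin gene *Opn1mw* and none of the other 9 genes. The intervals of the 2 summed *Guca1b* rates overlapped. Without the cell of most *Guca1b* counts in each library, the rates per 10000 were 0.136 (0.0761 to 0.224) and 0 (0 to 0.181).

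*Gucy2e* encodes the guanylate cyclase that cones depend on. It had 73 counts (57.2 to 91.8) in 28 of 82 uninjected cells and 26 counts (16.98 to 38.1) in 8 of 64 treated cells. After thinning to 867 counts, 5 of 81 uninjected and 4 of 50 treated cells had a *Gucy2e* count. The mean per 10000 was 0.878 in uninjected and 0.722 in treated cells, a log-fold of -0.09 (-0.41 to 0.24). In summed counts the rate was 0.656 per 10000 (0.514 to 0.824) and 1.25 (0.814 to 1.83), a ratio of 1.90 (1.17 to 3.01) of treated to uninjected. This ratio rested on 1 treated cell that held 19 of the 26 counts. Without the cell of most *Gucy2e* counts in each library the rates were 0.532 (0.404 to 0.688) and 0.350 (0.141 to 0.721), so the order turned. All 28 uninjected cells with *Gucy2e* also held *Guca1a*, which was present in 80 of 82 cells.

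*Gucy2f*, the second retinal cyclase, had 2 counts in 2 uninjected cells and 1 count in 1 treated cell, too few for a fold. *Gucy2e* took 97.3% (90.7 to 99.7%) of the counts of the cyclase pair in uninjected cells. *Rd3*, which binds the retinal cyclases and helps carry them to the outer segment, had 170 counts in 35 uninjected cells and 19 in 7 treated cells, with a log-fold of -0.40, and 18 uninjected cells held both *Gucy2e* and *Rd3*. Without the cell of highest *Rd3* level in each library its means were 0.945 and 0.600 per 10000, where they had been 1.70 and 0.814.

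*Arr3*, cone arrestin, was found in 80 of 82 uninjected cells with 1341 counts (1270 to 1415), and its lowest, median and highest counts per cell were 0, 3 and 308. In 24 cells there was exactly 1 count, and the highest cell, with 37282 counts in all, held 23.0% of the total. The treated library had 39 counts (27.7 to 53.3) in 3 of 64 cells, and 37 of them were in 1 cell. The log-fold was -1.89 (-2.05 to -1.72), from means of 10.6 to 0.762 per 10000. Without the highest cell of each library the summed rates were 9.60 per 10000 (9.02 to 10.2) and 0.0999 (0.0121 to 0.361), where they had been 12.04 and 1.87.

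The treated cell with 37 *Arr3* counts stood in the same well position as the uninjected cell with 308. In that position *Guca1a* had 323 counts in the uninjected and 0 in the treated cell, *Pdc* 140 and 0, and *Opn1sw* 474 and 0. Among the 54 well positions that hold a kept cell in both libraries, the correlation of log counts between treated and uninjected cells had a median of 0.205 for the same well and 0.201 for different wells, and the own well gave the highest value for 2 of 54 treated cells. These correlations compare whole profiles and cannot resolve the counts of a given gene in a given well, so they do not bear on the 37 *Arr3* counts. Whether the *Arr3* counts of that treated cell belong to it was not tested.

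Cones of the mouse also use the rod arrestin *Sag*. It had 821 counts in 79 uninjected cells, and *Arr3* took 62.0% (59.9 to 64.1%) of the counts of both, 61.3% in plate columns 1 to 6 and 62.8% in columns 7 to 12. Per kb the rate of *Arr3* was 4.56 times that of *Sag*. In treated cells *Sag* had 4 counts in 4 cells and a log-fold of -2.04, so both arrestins were lower.

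*Grk1*, the opsin kinase of rods and mouse cones, gave opposite directions by the mean over cells and by summed counts. It had 45 counts (32.8 to 60.2) in 20 uninjected cells and 24 (15.4 to 35.7) in 8 treated cells. After thinning to 867 counts, 4 of 81 uninjected and 3 of 50 treated cells had a *Grk1* count. The mean per 10000 was 2.07 and 0.920, a log-fold of -0.47 (-0.82 to -0.11). The summed rate was 0.404 per 10000 (0.295 to 0.541) in uninjected and 1.15 (0.737 to 1.71) in treated cells, a ratio of 2.85 (1.66 to 4.77). The uninjected mean rested on 1 shallow cell, in which 15 of 1260 counts were *Grk1*, and it was 0.622 without that cell. The same cell held 88 counts of the rod gene *Pde6g*. Whether its *Grk1* counts came from rod RNA was not tested. The treated counts were also uneven, with 13 of 24 in 1 cell. Without the cell of most *Grk1* counts in each library the summed rates were 0.270 (0.182 to 0.385) and 0.539 (0.269 to 0.965), with overlapping intervals.

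*Rgs9*, the GTPase-accelerating protein for transducin, had 52 counts (38.8 to 68.2) in 22 uninjected cells, at most 8 in a cell, and 2 counts in 2 treated cells. The ratio of the summed treated rate to the uninjected rate was 0.205 (0.0242 to 0.780), while the log-fold of the means, -0.19 (-0.50 to 0.12), stayed within 0.3. In thinned cells *Rgs9* was found in 1 of 81 uninjected and 2 of 50 treated cells, and its log-fold turned to 0.13. Its anchor *Rgs9bp* had 64 counts (49.3 to 81.7) in 20 uninjected cells, of which 28 lay in 1 cell, and none in treated cells. The summed rate of *Rgs9bp* was at least 4.0-fold lower in treated cells and the log-fold was -0.37 (-0.49 to -0.26). The log-fold came within the limit without its highest cell (-0.25) and in plate columns 1 to 6 alone (-0.21). With uninjected cells no deeper than the deepest treated cell it was also -0.25. In the other settings it stayed below -0.3. *Gnb5*, the obligate partner of RGS9, differed little on the log-fold scale (0.01), with 189 counts in 40 uninjected cells and 43 counts in 7 treated cells. Of the 43 treated *Gnb5* counts 24 lay in 1 cell. Without the cell of highest *Gnb5* level in each library its means were 1.14 and 0.692 per 10000, where they had been 1.42 and 1.45. The complex was rarely seen whole. *Rgs9* and *Rgs9bp* were counted together in 9 uninjected cells and with *Gnb5* in 7, and the median depth of the 9 cells was 41661 counts, against 4814 in the 49 cells with neither.

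*Rcvrn*, the calcium sensor that restrains GRK1, had 407 counts (368 to 449) in 73 of 82 uninjected cells, with a lowest, median and highest count of 0, 1 and 52. A single count was found in 1 treated cell. The log-fold was -1.70 (-1.86 to -1.54) and the ratio of the summed treated to uninjected rates 0.0131 (0.000331 to 0.0735). *Rcvrn* lies within the span of *Glp2r* on the opposite strand without shared exon bases, and *Glp2r* had 16 and 11 counts in uninjected and treated cells.

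*Pdc*, which sequesters transducin beta-gamma subunits, had 1019 counts (957 to 1084) in 69 of 82 uninjected cells, with a median of 3 and a highest count of 140. No treated cell had a count. The summed rate was at least 63.6-fold lower and the log-fold -2.30 (-2.40 to -2.20). Of the other phosducin family genes, *Pdcl3* had 77 counts and 2 counts in uninjected and treated cells, with a log-fold of -0.56.

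The counts of treated cells were scattered. The cells with 37 *Arr3*, 19 *Gucy2e* and 13 *Grk1* counts were 3 different cells with 8436, 8563 and 4532 counts, and each had no count of the 9 other cone markers and of the 9 remaining recovery genes. In the same well positions of the uninjected plate *Gucy2e* and *Grk1* had no count. The 19 treated cells with any of the genes had a median depth of 4494 counts and the 45 without had 1810. Set against the 510 olfactory and vomeronasal receptor genes of the treated library, 35 (6.86%) were seen in at least 8 cells, as *Gucy2e* and *Grk1* were, and 14 had at least as many counts as each of these. In the uninjected library 15 (2.94%) of these receptor genes reached the 20 cells of *Grk1*, 8 (1.57%) the 28 cells of *Gucy2e* and 36 (7.06%) the 11 cells of *Guca1b*, but none the 80 cells of *Arr3* and *Guca1a* or the 73 of *Rcvrn*, and 1 (0.196%) the 69 of *Pdc*. The receptor genes had a median of 2 and a maximum of 369 counts in the treated library, where *Gucy2e* had 26 and *Grk1* 24.

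Within the uninjected plate, the wells of columns 7 to 12 (43 cells, median 7163 counts) were compared with those of columns 1 to 6 (39 cells, median 8819 counts). The plate holds 1 library, so this describes variation among cells. A log-fold below -0.3 was found for 3 of the 10 genes, lower in columns 7 to 12 (9.00% of all genes passed), and above 0.3 for none (8.42% of all genes). *Gucy2e* had 55 counts in 17 cells on the first side and 18 counts in 11 cells on the second, a log-fold of -0.78. *Guca1b* had 30 and 4 counts in 8 and 3 cells, a log-fold of -0.41, but 19 of the 30 lay in 1 cell. Without the highest cell of each side its means were 0.117 and 0.0121 per 10000, and in thinned cells its log-fold was -0.26, within the limit. *Grk1* had a log-fold of -0.95, but the mean of 3.52 per 10000 on the first side rested on the shallow cell named above. Without the highest cell of each side the *Grk1* means were 0.477 and 0.431, where the second side had been at 0.751.

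Rod genes were lower on the same side. Of the 10 genes of the rod cascade 6 were below -0.3 in columns 7 to 12 and none above 0.3, with a median log-fold of -0.50. *Gnat1*, the rod transducin, had 160 counts in columns 1 to 6 and 18 in columns 7 to 12, with a log-fold of -1.04, and *Gnb1*, its beta subunit, had 145 and 11 counts and -1.21. *Pde6g* is among the 6 by 1 cell of columns 1 to 6 at 698 per 10000, the shallow cell that held 15 *Grk1* counts. Without this cell the means were 9.91 and 13.3 per 10000, higher in columns 7 to 12. In the cone activation cascade 5 of 9 genes were above 0.3 and none below -0.3, with a median of 0.39 and values of 0.56 for *Opn1sw*, 0.59 for the cone transducin *Gnat2* and 0.50 for *Gnb3*. The part of rod RNA in the side difference was not tested. The log-folds of *Guca1a* (0.02), *Rcvrn* (-0.05), *Arr3* (0.19) and *Pdc* (-0.16) were within 0.3. In summed counts, however, the intervals of *Rcvrn*, *Guca1a* and *Pdc* lay apart with columns 1 to 6 higher. How many of all genes did so between the sides was not computed. The rates per 10000 were 4.92 (4.35 to 5.54) and 2.44 (2.05 to 2.88) for *Rcvrn*, 50.6 (48.7 to 52.5) and 42.8 (41.1 to 44.5) for *Guca1a*, and 10.5 (9.64 to 11.4) and 7.87 (7.16 to 8.64) for *Pdc*. Those of *Arr3* overlapped. *Rgs9bp* had 9 and 55 counts, of which 28 came from 1 cell, and a log-fold of 0.28.

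**Figure D3:**
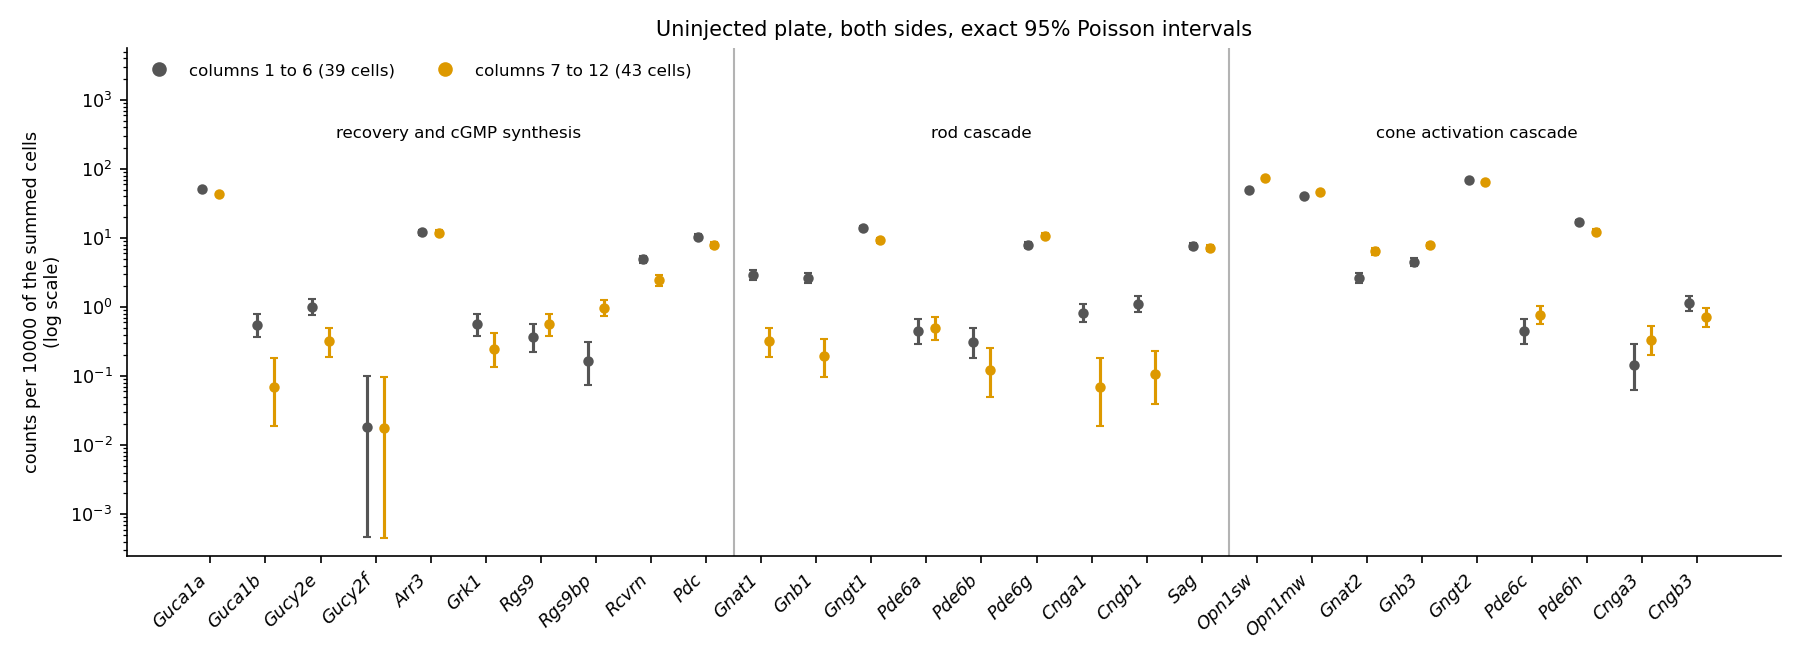
Counts per 10000 of the summed uninjected cells on each side of the plate, on a log axis, with exact 95% Poisson intervals, for the 10 genes, 9 genes of the rod cascade and the 9 of the cone activation cascade. *Gucy2e*, *Guca1b*, *Gnat1* and *Gnb1* were lower in columns 7 to 12, *Arr3* was level, and *Opn1sw* and *Gnat2* were higher.

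Only *Arr3*, *Guca1a*, *Pdc* and *Rcvrn* were found in enough uninjected cells to describe how they vary together. Over the 82 cells the Spearman correlations of their scaled counts were between -0.036 and 0.21, highest for *Arr3* with *Guca1a*, which was -0.094 in columns 1 to 6 and 0.46 in columns 7 to 12. Among 793 genes counted in at least 50% of these cells, *Guca1a* ran closest with *Gngt2* (0.48), the cone transducin gamma subunit, and *Tmsb10* (0.41), and *Arr3* with *Gapdh* (0.45) and *Hmgn1* (0.42). The closest for *Pdc* were *Clstn2* (0.34) and *Tmem50a* (0.33), and for *Rcvrn* *Scg3* (0.38) and *Ndufv3* (0.37). All cells share 1 library, and these genes were picked as the highest of 793, so their values are high by choice. After thinning to 867 counts the values for *Guca1a* were 0.33 with both *Gngt2* and *Tmsb10*. Those for *Arr3* were 0.25 with *Gapdh* and 0.17 with *Hmgn1*, and for *Pdc* 0.21 with *Clstn2* and 0.15 with *Tmem50a*. For *Rcvrn* the values were -0.0097 with *Scg3* and 0.071 with *Ndufv3*.

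The other genes of the light response gave the setting of these values. In the activation cascade of cones 8 of 9 genes were below -0.3 and none above 0.3, with a median log-fold of -1.39. *Opn1sw* had 6935 and 0 counts, *Gngt2* 7459 and 0, *Gnb3*, the cone transducin beta subunit, 691 and 1, *Gnat2* 509 and 1, and *Cngb3*, a subunit of the cone channel, 103 and 0. *Opn1mw* had 4831 counts in uninjected and 304 in treated cells, of which 303 were in the cell named above, and *Pde6h*, the cone phosphodiesterase gamma subunit, 1628 and 92, of which 88 were in 1 cell. In the rod cascade 6 of 10 were lower and none higher, with a median of -0.88. *Gngt1* had 1293 and 0 counts, *Pde6g* 1048 and 1, *Gnat1* 178 and 1, and *Gnb1* 156 and 2. The median of the 10 recovery and cyclic GMP genes, -0.42, was closer to 0 than that of either cascade, and 6 of the 10 had fewer than 100 counts in uninjected cells.

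Among 13 other recovery and calcium genes 7 were lower and 3 higher, with a median of -0.40. Of all genes 11.8% were lower and 12.6% higher by the same limits. The lipid-binding chaperones *Unc119* (237 and 15 counts) and *Pde6d* (173 and 1) were among the lower ones. The cone exchanger *Slc24a2* had 170 and 19 counts and a log-fold of 0.14, while its ratio of summed treated to uninjected rates was 0.597 (0.351 to 0.961). The 3 higher genes, named after their values were seen, were *Rdh12* (55 and 32 counts), *Slc24a1* (6 and 7) and *Prkg1* (40 and 16). Without the highest cell of each gene their treated means were 1.23, 0.296 and 0.668 per 10000, in place of 1.75, 0.546 and 0.877. Of the families of the 10 genes, none of 5 other GRK kinases was lower and 1 was higher, *Grk4*, named after its values were seen, with 8 and 6 counts, and *Grk2* had 79 and 17 counts and a log-fold of 0.09. The treated mean of *Grk4* was 0.386 per 10000, and 0.0976 without 1 cell of 1077 counts. None of 5 genes of the R7 RGS family and its partners was lower and 1 was higher, *Rgs6*, named after its values were seen, with 13 and 52 counts and a log-fold of 1.73. Of the 52 counts of *Rgs6* 31 lay in 1 cell of 1252 counts, and without it the treated mean was 1.19 per 10000 in place of 5.04. None of 7 other guanylate cyclases measured passed 0.3, and the most counted, *Npr1* and *Gucy1b1*, had 7 counts each in uninjected cells. With 1 added, genes this sparse could not fall below -0.3 even without any treated count. *Gucy1b1*, which had no treated count, stood at -0.06. The same held for the GRK and RGS genes with uninjected means of at most 0.122 per 10000, so the limit could not show a fall in them. Of 4 other neuronal calcium sensors 1 was higher, *Ncs1*, named after its values were seen, with 2 and 6 counts, and *Hpcal4* had 128 and 20 counts and a log-fold of -0.29. The treated mean of *Ncs1* was 0.568 per 10000, and 0.122 without 1 cell of 698 counts.

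**Figure D4:**
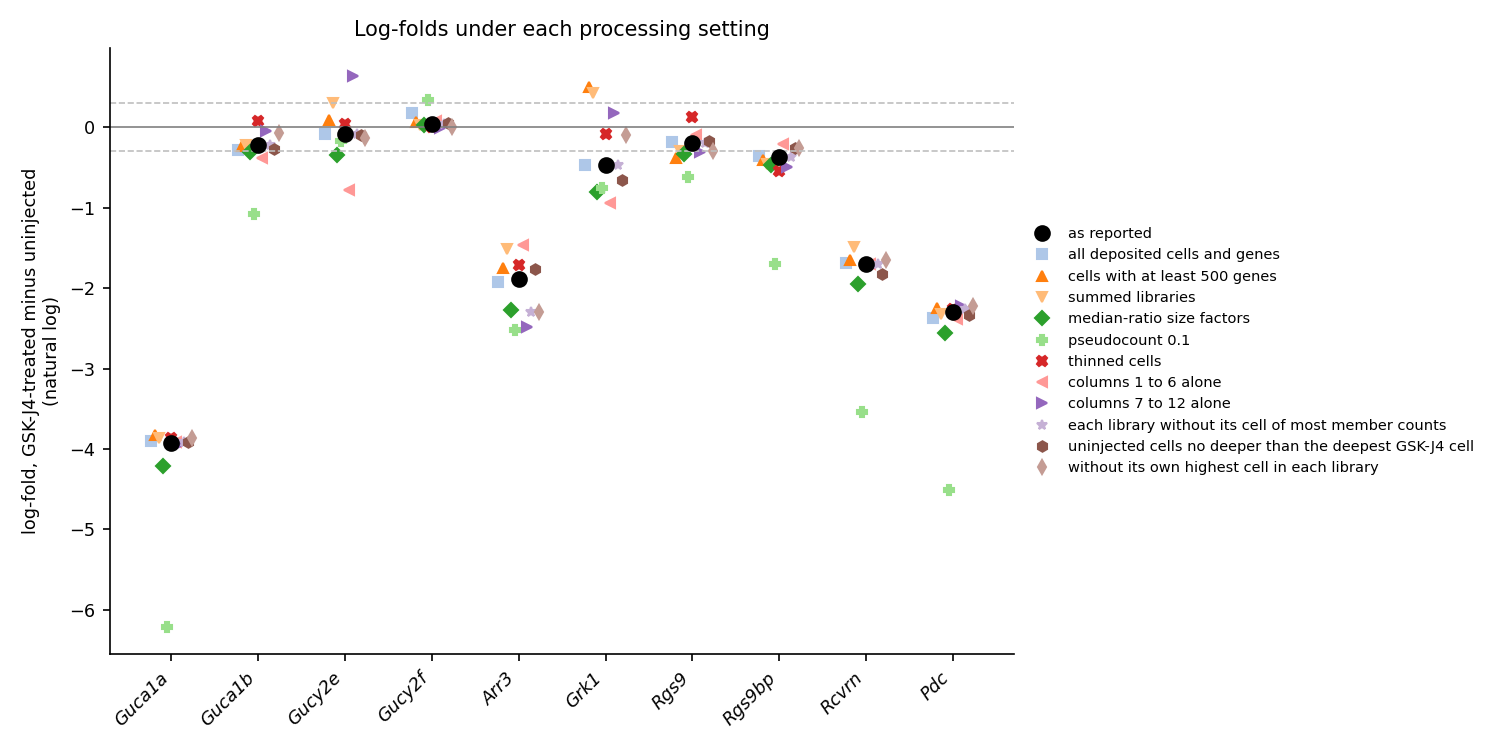
Log-fold of each gene, on the natural log scale, as reported (black) and under each alternative setting (coloured symbols). Dashed lines mark -0.3 and 0.3. *Guca1a*, *Pdc*, *Rcvrn* and *Arr3* lay at -1.46 or lower under every setting drawn, while *Grk1* and *Gucy2e* lay on both sides of 0.

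Under all 11 alternatives tried, *Guca1a* (-6.21 to -3.82), *Pdc* (-4.51 to -2.22), *Rcvrn* (-3.54 to -1.49) and *Arr3* (-2.52 to -1.46) stayed below -0.3 on the log-fold scale. *Rgs9bp* ran from -1.70 to -0.21, and *Rgs9* from -0.62 to 0.13. *Gucy2e*, from -0.78 in columns 1 to 6 to 0.64 in columns 7 to 12, and *Grk1*, from -0.94 to 0.50, had no direction that held across settings.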

How the data were processed

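Single cells of 2 libraries, uninjected and GSK-J4-treated, were grouped by their labels. The table the authors deposited holds raw counts, unnormalised whole numbers for every gene in every well. By the study's methods, reads were split by plate and well barcode, aligned with the CLC Genomics Workbench, freed of duplicates by molecular identifier and position, counted with featureCounts on Gencode annotation, and the 3′ and 5′ counts summed. Labels and methods name the genome GRCh38, a human build; coordinates here are GENCODE vM21 on GRCm38. The uninjected file columns lack a treatment word and were assigned to the untreated sample on that ground. The deposited 85 uninjected cells equal the number the study analysed, while the 66 treated cells are fewer than it gives. Genes counted in fewer than 3 cells (1827 genes) and cells with under 200 genes or over 5% mitochondrial counts were removed, which left 15947 genes and 82 and 64 cells; 5 cells were lost by mitochondrial share. Doublets were not called, since wells were sorted singly, and batch correction was not applied.

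Counts were scaled to 10000 per cell, averaged, and compared as natural logs after adding 1, with the 0.3 limit of the study. Summed counts had exact Poisson intervals and shares Clopper-Pearson intervals at 95%. A gene without counts was given a floor of 3 counts over the library, and a fold given as at least does not allow for the error of the other library's count. Cells were thinned to 867 counts, the 10th percentile, leaving out 1 uninjected and 14 treated cells. Log-fold intervals treat the counts of a gene as Poisson. Named genes were the 10 members, genes of the pathway lists with at least 100 counts in a library or otherwise the list's most counted, and the 2 best correlated genes of each member found in at least 50% of the uninjected cells. The members, lists and settings were chosen with earlier results of these data known. The calculation was tested on simulated counts. Of the 45-base stretches of each gene's transcripts, 6.05% (*Grk1*), 2.93% (*Rgs9*), 0.275% (*Rgs9bp*) and otherwise 0% also occur in another gene. The results of some single genes of the lists are not reported here. Alternatives covered the cell filter, scaling, added constant, depth, plate side and single cells. Python 3.11.15, numpy 2.4.6, pandas 2.3.3 and scipy 1.17.1 were used.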

Additional observations from a re-analysis of the deposited data

How the results depend on the processing

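Of 110 member log-folds recomputed over 11 settings, 67 moved by less than their counting interval, 40 moved by more and 3, of genes past 0.3 as reported, reversed. These were all of *Grk1*, at 0.50 with cells of at least 500 genes, 0.43 with summed libraries and 0.17 in plate columns 7 to 12 alone. The number of the 10 genes below -0.3, 6 as reported, ran from 5 to 9. The share of all genes below -0.3 ran from 10.6% with all deposited cells and genes to 28.2% with 0.1 added. The median log-fold of the 10 genes was -0.63 with median-ratio size factors, -1.39 with 0.1 added in place of 1, and -0.86 in columns 1 to 6 alone. With 0.1 added, 44.1% of all genes were above 0.3 and the median of all genes was 0.18. The median-ratio factor shifted treated values by -0.58 on the natural log scale and moved the split of all genes from 11.8% lower and 12.6% higher to 17.4% lower and 5.69% higher, while their median went from 0.033 to -0.018. The uninjected share of counts was 0.808% in columns 1 to 6, 0.672% in columns 7 to 12 and 0.692% without the cell of most member counts. The treated share was 0.0577%, 0.0358% and 0.0285% in the same order, so 1 cell, the *Arr3* cell, held much of it. The count of the 10 genes beyond 0.3 between the plate sides was 5 in thinned cells and 2 with cells of at least 500 genes, where 3 are reported. The share of all genes was not computed for these 2 settings. *Grk1*, -0.95 between the sides as reported, was -0.15 with these cells and -0.23 in summed counts. The cause was not tested. The settings without each gene's own highest cell and with uninjected cells no deeper than the deepest treated cell were chosen after seeing the data. No paired analysis was possible because each condition had 1 library. Few counts limit the precision of the treated values, since 7 of the 10 genes had at most 2 counts in the shallower treated library.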

Other observations

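The 5 cells removed for their mitochondrial share also held counts of these genes. The 3 uninjected cells had 8, 10 and 133 counts of the 10 genes, the last with 66 of *Pdc*, 49 of *Arr3* and 12 of *Guca1a* among 12826 counts. The 2 treated cells had 0 and 2, both counts being of *Gucy2f*, which had 1 count in the 64 treated cells kept.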
